A study of Mus musculus with 2 samples.

Results

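The genes that make milk fat and cholesterol were examined in mammary epithelial cells (MECs) of wild-type (WT) and *Igfbp7*-/- mice on day 3 of lactation. The set was chosen by symbol, from enzymes of fatty acid synthesis, triglyceride assembly and sterol synthesis and the regulators of the sterol regulatory element binding proteins (SREBPs). Of the 46 symbols named, 45 had a row in both count tables, out of 25810 genes with a symbol, and *Hmgcs1* was not analysed here. Of these 45 genes, 30 were lower in the *Igfbp7*-/- library by at least 1.5 times, none was higher by that much, and 15 lay within 1.5 times. Of all 14026 genes with at least 1 RPM in 1 library, 23.0% were lower and 21.4% higher by that much. The 30 lower genes held 13 of the 14 genes of fatty acid synthesis, desaturation and elongation and 14 of the 15 genes of the sterol route. The enzymes that assemble triglyceride and most regulators lay within 1.5 times. With 1 library per genotype there was no replicate, so no test between genotypes could be made and each ratio describes these libraries.

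One library was from WT mice and the other from *Igfbp7*-/- mice, which lack the first coding exon of *Igfbp7*, the gene of a secreted protein that binds insulin-like growth factors, in every cell of the body. Both came from inguinal glands of females at the same stage. The sample labels give the background of both as C57BL/6, whereas the study's methods name CD1, and the number and age of the animals behind each library are not given in the sources used here. Cells positive for lineage markers were removed magnetically, for which the labels name CD45, CD35 and Ter119 and the methods name the endothelial marker CD31 in place of CD35, RNA was selected by its poly(A) tail, and the libraries were read on a SOLiD sequencer. Expression is given in RPM, reads per 1000000 mapped reads, and, where levels of different genes are compared, in RPKM, the RPM divided by gene length in kilobases.

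Milk fat is largely triglyceride. In the lactating alveolus, citrate is cleaved to acetyl-CoA, which acetyl-CoA carboxylase and fatty acid synthase build into fatty acids. A mammary thioesterase ends many of these chains early, so that milk is rich in medium-chain acids. Desaturases and elongases modify the chains, acyl-CoA synthetases activate them, and acyltransferases join them to glycerol at the endoplasmic reticulum. Cholesterol is built from the same acetyl-CoA through mevalonate, isoprenoids and squalene. The SREBPs are transcription factors held in the endoplasmic reticulum by SCAP and the INSIG proteins while sterols are plentiful, and once released and cleaved they activate the genes of both routes.

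Totals of mapped reads were worked out from the deposited counts and RPM. They were 34327854 for the WT library and 35016847 for the *Igfbp7*-/- library, of which 82.3% and 72.3% lay on listed genes. A single read stood for 0.0291 RPM in the first and 0.0286 RPM in the second. *Igfbp7* itself had 5224 reads in WT and 37 in *Igfbp7*-/- (152.2 and 1.06 RPM). Ratios are *Igfbp7*-/- to WT on the log2(RPM + 0.1) scale, and each is given with the exact 95% interval that the number of read pairs allows. These intervals cover counting error only and say nothing of the variation between animals. All 45 genes passed the minimum of 1 RPM in at least 1 library.

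Across all 14026 genes that passed the minimum, 23.0% were lower and 21.4% were higher by at least 1.5 times, against 30 of 45 (66.7%) and 0 of 45 among the lipid synthesis genes. At a stricter 2-fold limit 26 of the 45 (57.8%) were lower, against 13.8% of all genes. Among genes with at least 10 RPM in 1 library, 27 of 39 lipid synthesis genes (69.2%) were lower, where 20.4% of all such genes were lower and 20.7% higher. The median log2 ratio of the 45 genes was -1.26, with quartiles of -1.82 and -0.39, and that of all genes was 0.03, with quartiles of -0.52 and 0.51. The counting interval lay above 0 for *Scap*, *Gpam* and *Agpat6*, included 0 for *Insig2*, *Mlxipl*, *Acsl3* and *Dgat1*, and lay below 0 for the other genes of the set. The share of all genes with such intervals was not computed, so these intervals describe single genes and not the set. Summed over the set, expression was 10258 RPM in WT against 4693 RPM in *Igfbp7*-/-, which was 2.19-fold lower and fell from 1.03% to 0.469% of mapped reads. A lower level in bulk RNA can come from fewer cells of a type or from less RNA per cell, and these cannot be told apart.

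**Figure D1:**
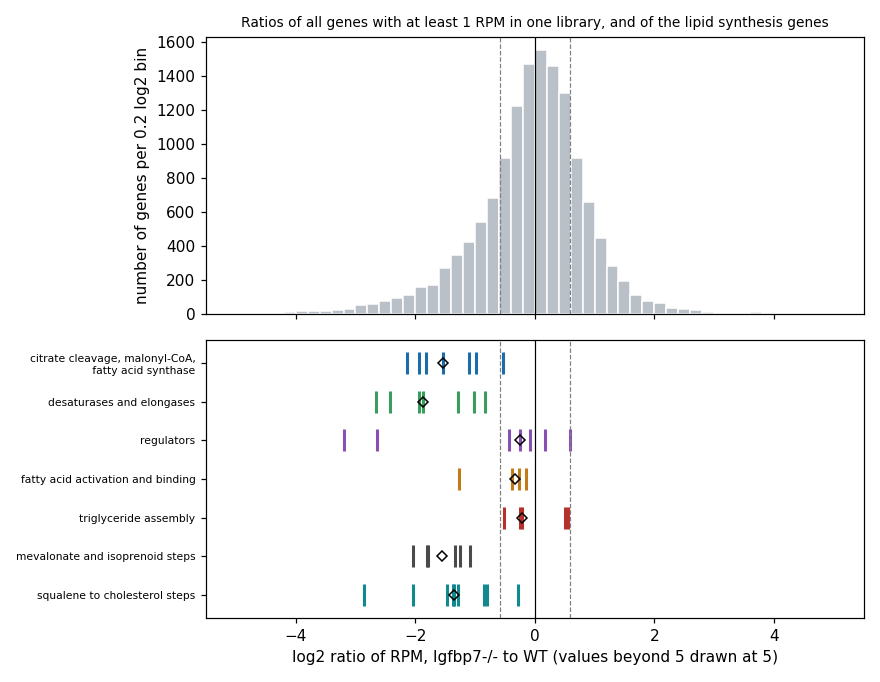
The upper panel is a histogram of the log2 ratio of RPM, *Igfbp7*-/- to WT, of the 14026 genes that passed the minimum, and the lower panel marks each of the 45 lipid synthesis genes by role, with a diamond at the median of the role. Dashed lines stand at a ratio of 1.5 in either direction. All genes centre near 0 (median 0.03), whereas most marks of the fatty acid and sterol roles lie left of the lower dashed line and no mark of the triglyceride role does.

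The route from citrate to fatty acids was lower at 6 of its 7 genes. Their summed expression was 2466 RPM in WT against 905.2 RPM in *Igfbp7*-/- (log2 ratio -1.45, interval -1.47 to -1.42), with a median log2 ratio of -1.54. *Fasn*, on chromosome 11, encodes fatty acid synthase, the multifunctional enzyme that elongates the chain, and had 1608 RPM in WT against 552.6 RPM in *Igfbp7*-/- (log2 ratio -1.54, interval -1.57 to -1.51). *Acly*, which cleaves citrate to supply cytosolic acetyl-CoA, had 391.3 RPM in WT against 111.1 RPM in *Igfbp7*-/-, a 3.52-fold difference. *Acss2*, which makes acetyl-CoA from acetate, had 22.9 and 5.91 RPM. The 2 enzymes that supply the acetyl-CoA therefore stood 3.52-fold and 3.83-fold lower.

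The acetyl-CoA carboxylases, which make malonyl-CoA, did not move alike. *Acacb*, the form held at the outer mitochondrial membrane and known for restraining fatty acid oxidation, had 49.7 RPM in WT against 11.2 RPM in *Igfbp7*-/-, the largest difference of the role (log2 ratio -2.14, interval -2.39 to -1.93). *Acaca*, the cytosolic form that feeds fatty acid synthase, had 157.6 and 108.3 RPM and was the gene of the role that stayed within 1.5 times (log2 ratio -0.54, interval -0.63 to -0.45). The 2 intervals did not overlap. *Olah*, the thioesterase that releases medium-chain acids from the synthase, had 96.5 and 45.1 RPM (log2 ratio -1.10). *Me1*, the malic enzyme that supplies NADPH, had 139.9 and 71.0 RPM (log2 ratio -0.98).

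All 7 desaturases and elongases were lower. Their sum was 5504 RPM in WT against 2547 RPM in *Igfbp7*-/- (log2 ratio -1.11, interval -1.13 to -1.10), and their median log2 ratio was -1.87. *Scd1*, the stearoyl-CoA desaturase that makes oleate and palmitoleate, was the most abundant gene of the whole set, with 4627 RPM in WT against 2293 RPM in *Igfbp7*-/- (log2 ratio -1.01, interval -1.03 to -0.995). It carried 45.1% of the set's RPM in WT against 48.9% in *Igfbp7*-/-, so the sums of the set and of this role follow it closely.

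*Scd2*, a neighbouring paralog on chromosome 19, had 178.7 and 33.1 RPM and a larger difference (log2 ratio -2.43, interval -2.56 to -2.31). How reads shared between near-identical *Scd* genes were placed is not given in the sources used here, so the split of reads among them is uncertain. *Scd1* held 95.3% of the summed RPM of *Scd1*, *Scd2*, *Scd3* and *Scd4* in WT and 97.1% in *Igfbp7*-/-. Beside them, *Scd3* had 33.7 and 24.99 RPM and *Scd4* 18.2 and 10.9 RPM.

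*Elovl6*, which elongates the palmitate that fatty acid synthase releases, had 59.2 RPM in WT against 9.31 RPM in *Igfbp7*-/-, the lowest ratio of the role (log2 ratio -2.66, interval -2.92 to -2.43). *Elovl1*, an elongase of very long saturated chains, had 73.9 and 41.4 RPM, the highest ratio of the role (log2 ratio -0.84, interval -0.97 to -0.71). *Elovl5*, which elongates polyunsaturated acids, had 120.6 and 49.5 RPM (log2 ratio -1.28). *Fads1* and *Fads2*, the front-end desaturases that act in turn with ELOVL5 on linoleate and linolenate, had close ratios, *Fads1* with 382.4 and 104.5 RPM (log2 ratio -1.87, interval -1.95 to -1.797) and *Fads2* with 63.0 and 16.4 RPM (log2 ratio -1.93, interval -2.13 to -1.75). The counting intervals of this pair overlapped, and that of *Fads2*, on fewer reads, was the wider.

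**Figure D2:**
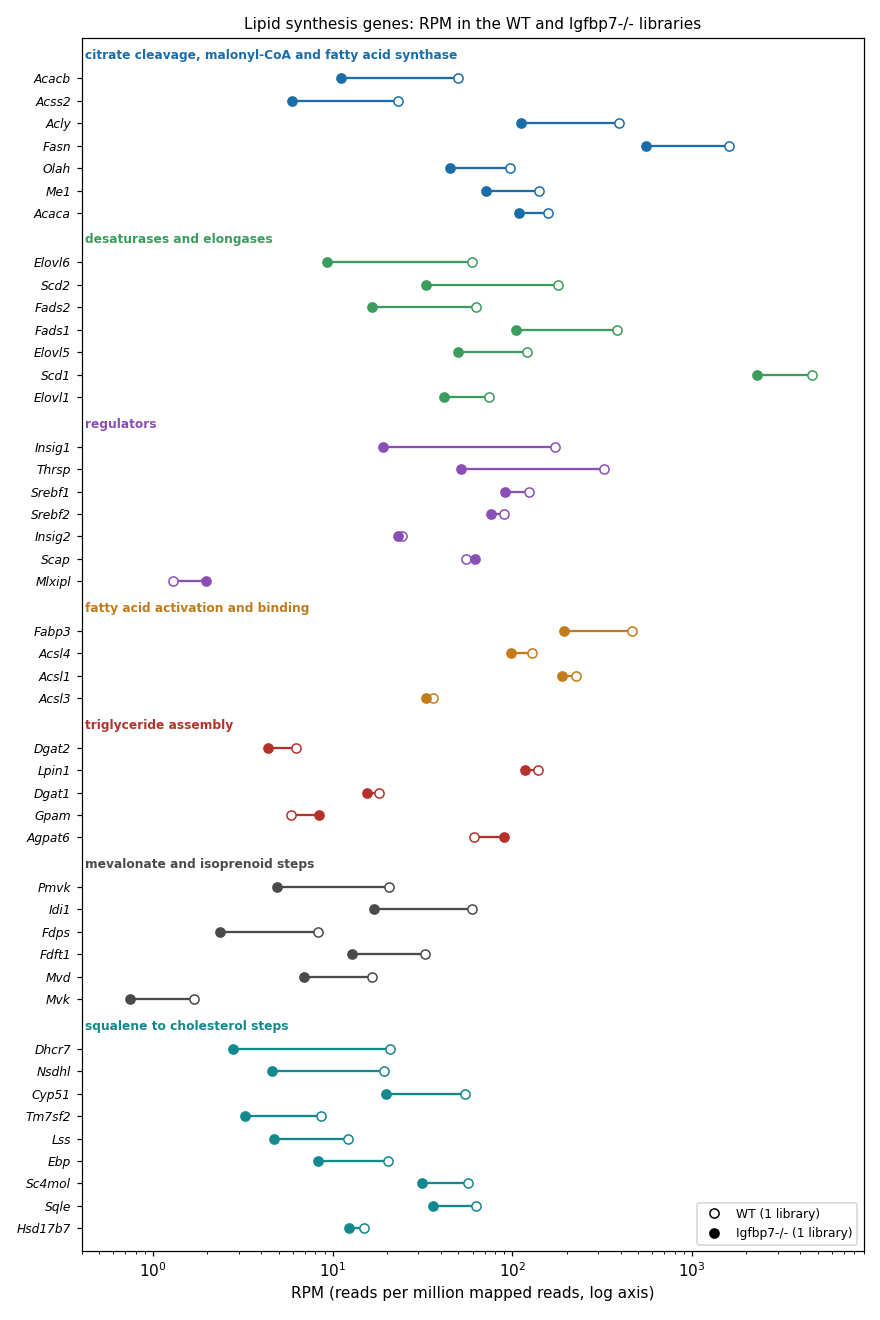
Expression of each of the 45 genes in RPM on a log axis, with an open circle for the WT library, a filled circle for the *Igfbp7*-/- library and genes grouped by role. The filled circle lies left of the open one for 41 genes, with the widest gaps at *Insig1* (173.4 and 19.0 RPM) and *Dhcr7* (20.7 and 2.77 RPM), and right of it for *Scap*, *Mlxipl*, *Gpam* and *Agpat6*.

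Among the 7 regulators, *Insig1* and *Thrsp* were lower and the other 5 lay within 1.5 times. *Insig1*, a sterol-sensing retention protein whose gene is itself a target of the SREBPs, had 173.4 RPM in WT against 19.0 RPM in *Igfbp7*-/-, a 9.10-fold difference and the largest of the 45 genes (log2 ratio -3.19, interval -3.36 to -3.03). Its paralog *Insig2*, which has the same retention function, had 24.4 and 23.1 RPM (log2 ratio -0.08, interval -0.28 to 0.12). In RPKM, *Insig1* exceeded *Insig2* in WT (65.0 and 9.94 RPKM) and was below it in *Igfbp7*-/- (7.11 and 9.43 RPKM). *Thrsp*, which encodes the Spot 14 protein of lipogenic tissues, had 324.1 and 51.6 RPM (log2 ratio -2.65, interval -2.75 to -2.55).

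The transcription factor genes had smaller differences than most of the enzymes. *Srebf1*, whose product acts mainly on fatty acid genes, had 123.1 RPM in WT against 91.2 RPM in *Igfbp7*-/- (log2 ratio -0.43, interval -0.53 to -0.34). *Srebf2*, whose product acts mainly on sterol genes, had 90.1 and 76.0 RPM (log2 ratio -0.24, interval -0.35 to -0.14). *Scap*, the escort that carries SREBPs to the Golgi, had 55.0 and 62.2 RPM (log2 ratio 0.18, interval 0.05 to 0.30). *Mlxipl*, the carbohydrate response factor ChREBP, rested on 44 and 69 reads, at 1.28 and 1.97 RPM, and had the highest ratio of the 45 genes with an interval that included 0 (log2 ratio 0.58, interval -0.22 to 1.44). The files measure transcripts only, so the cleavage that makes SREBPs active was not seen. The role's median log2 ratio was -0.24, whereas its sum, 791.3 RPM in WT against 325.1 RPM in *Igfbp7*-/-, gave -1.28, of which *Thrsp* and *Insig1* made up the largest parts in WT.

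Promoter sequences were available from RefSeq (mouse build GRCm38.p6) for 36 of the 45 genes, each running from 250 bases before an annotated start to 50 bases after it. These 36 genes had 49 promoters, since 10 of them (27.8%) had more than 1 start, as had 15.4% of all genes. A gene was counted as holding a motif if any of its promoters did, and copies are those of its richest promoter. They were not available for *Scd1*, *Scd2*, *Fads1*, *Agpat6*, *Dgat1*, *Dgat2*, *Fdps*, *Fdft1* and *Sqle*, and *Sc4mol* was matched through its present symbol *Msmo1*. The 5 sequences below are shown since they belong to the regulators of largest difference, to fatty acid synthase, to *Nsdhl*, a sterol gene with 4 CCAAT boxes, and to a triglyceride gene within 1.5 times that had none. They were picked partly by their boxes and do not stand for the set. Each is written 5′ to 3′ on the strand of the gene, and capitals mark CCAAT, its complement ATTGG, or CACGTG.
*Insig1*, chr5:28071162-28071461, plus strand: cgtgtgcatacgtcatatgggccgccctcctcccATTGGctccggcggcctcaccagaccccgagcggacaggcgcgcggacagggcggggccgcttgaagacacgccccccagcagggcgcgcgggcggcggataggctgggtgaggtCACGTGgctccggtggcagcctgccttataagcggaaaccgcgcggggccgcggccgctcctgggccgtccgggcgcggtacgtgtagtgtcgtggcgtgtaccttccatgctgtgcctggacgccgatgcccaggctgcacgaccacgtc
*Thrsp*, chr7:97417501-97417800, minus strand: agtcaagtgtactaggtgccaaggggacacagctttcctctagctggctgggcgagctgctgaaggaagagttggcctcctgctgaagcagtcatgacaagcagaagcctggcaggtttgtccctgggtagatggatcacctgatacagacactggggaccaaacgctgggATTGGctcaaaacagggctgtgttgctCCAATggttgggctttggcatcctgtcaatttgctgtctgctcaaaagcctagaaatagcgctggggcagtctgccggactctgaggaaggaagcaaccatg
*Fasn*, chr11:120824498-120824797, minus strand: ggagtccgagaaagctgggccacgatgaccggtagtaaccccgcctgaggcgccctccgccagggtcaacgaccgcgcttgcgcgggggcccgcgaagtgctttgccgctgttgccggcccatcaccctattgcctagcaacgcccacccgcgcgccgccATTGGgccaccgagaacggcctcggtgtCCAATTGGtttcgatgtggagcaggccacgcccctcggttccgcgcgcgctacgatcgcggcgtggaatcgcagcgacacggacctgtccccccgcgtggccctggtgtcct
*Nsdhl*, chrX:72918271-72918570, plus strand: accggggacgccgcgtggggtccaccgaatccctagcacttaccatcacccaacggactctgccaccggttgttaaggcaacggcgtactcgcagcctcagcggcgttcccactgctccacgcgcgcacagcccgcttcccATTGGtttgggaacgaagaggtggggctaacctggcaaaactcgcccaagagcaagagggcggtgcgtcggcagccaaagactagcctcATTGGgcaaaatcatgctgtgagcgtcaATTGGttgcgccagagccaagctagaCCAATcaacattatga
*Lpin1*, chr12:16610917-16611216, minus strand: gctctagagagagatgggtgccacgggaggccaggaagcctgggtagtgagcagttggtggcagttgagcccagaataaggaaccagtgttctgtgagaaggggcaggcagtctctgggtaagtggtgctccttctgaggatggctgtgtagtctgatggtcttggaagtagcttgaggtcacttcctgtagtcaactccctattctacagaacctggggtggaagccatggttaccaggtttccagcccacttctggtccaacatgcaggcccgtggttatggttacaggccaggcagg

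CCAAT, the box bound by NF-Y, a partner of SREBPs at many sterol genes, was searched on both strands. It was held by 28 of the 36 genes (77.8%), against 41.1% of the 27025 genes with a promoter sequence and 42.5% of the 9265 of these with at least 1 RPM in 1 library. All 12 sterol synthesis genes with a promoter held it, whereas 16 of the 24 other genes (66.7%) did. At least 2 copies were held by 8 of the 12 sterol genes (66.7%) and 5 of the 24 others (20.8%). The share with at least 2 copies was 13.3% of all genes with a promoter sequence and 16.1% of those with at least 1 RPM. By ratio, 20 of the 24 lower genes with a promoter (83.3%) and 8 of the 12 genes within 1.5 times (66.7%) held the box. The lower genes without it were *Olah*, *Elovl6*, *Fads2* and *Fabp3*, and those within 1.5 times were *Acaca*, *Scap*, *Acsl4* and *Lpin1*. *Mvk* had 5 copies and *Nsdhl* 4, while *Insig2*, which lay within 1.5 times, had 3, as did *Sc4mol*, *Hsd17b7* and *Fasn*. In *Fasn*, 2 of the 3 copies overlap on opposite strands. The other letters searched were CACGTG (E-box), in 16.7% of the set, 8.09% of all genes and 11.7% of those with at least 1 RPM, TCACNCCAC (the core of the SREBP element), in *Mlxipl* and *Acsl1* alone and 1.44% of all genes, and TTCNNNGAA (the STAT5 element), in *Ebp* alone and 9.55% of all genes. CACGTG was held by 3 of the 24 lower genes with a promoter and by 3 of the 12 within 1.5 times. These are matches of letters in a 300-base window, and no match says only that the letters were not there. A gene with several promoters had more chances of a match, and the shares were not corrected for this.

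Fatty acid activation and binding was led by *Fabp3*, the fatty acid binding protein of heart and lactating mammary gland, with 465.0 RPM in WT against 193.4 RPM in *Igfbp7*-/- (log2 ratio -1.27, interval -1.32 to -1.21). It was the one gene of this role lower by at least 1.5 times. The 3 long-chain acyl-CoA synthetases, which attach CoA to fatty acids, lay within 1.5 times. *Acsl1* had 227.3 and 188.5 RPM, and *Acsl4* had 128.4 and 98.2 RPM. *Acsl3*, the synthetase of nascent lipid droplets, had the highest ratio of the role with 36.3 and 32.9 RPM (log2 ratio -0.14, interval -0.31 to 0.03). The role's sum was 857.0 RPM in WT against 513.0 RPM in *Igfbp7*-/-.

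Triglyceride assembly was the role with no lower gene. The sum of its 5 enzymes was 230.0 RPM in WT against 235.2 RPM in *Igfbp7*-/- (log2 ratio 0.03, interval -0.03 to 0.10). *Agpat6*, the endoplasmic reticulum glycerol-3-phosphate acyltransferase of milk fat synthesis, had 60.9 and 89.4 RPM, the highest ratio of the role (log2 ratio 0.55, interval 0.44 to 0.67). *Gpam*, its mitochondrial counterpart, had 5.88 and 8.40 RPM (log2 ratio 0.51, interval 0.14 to 0.89). The entry step of glycerolipid synthesis was thus higher in *Igfbp7*-/- at both of these genes, by less than 1.5 times. *Lpin1*, the phosphatase that makes diacylglycerol, had 138.9 and 117.5 RPM, and *Dgat1*, a diacylglycerol acyltransferase that makes triglyceride, had 18.03 and 15.5 RPM. *Dgat2*, an unrelated enzyme of the same reaction, had 6.23 and 4.34 RPM, the lowest ratio of the role (log2 ratio -0.51, interval -0.97 to -0.08). Differences between roles were not tested.

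**Figure D3:**
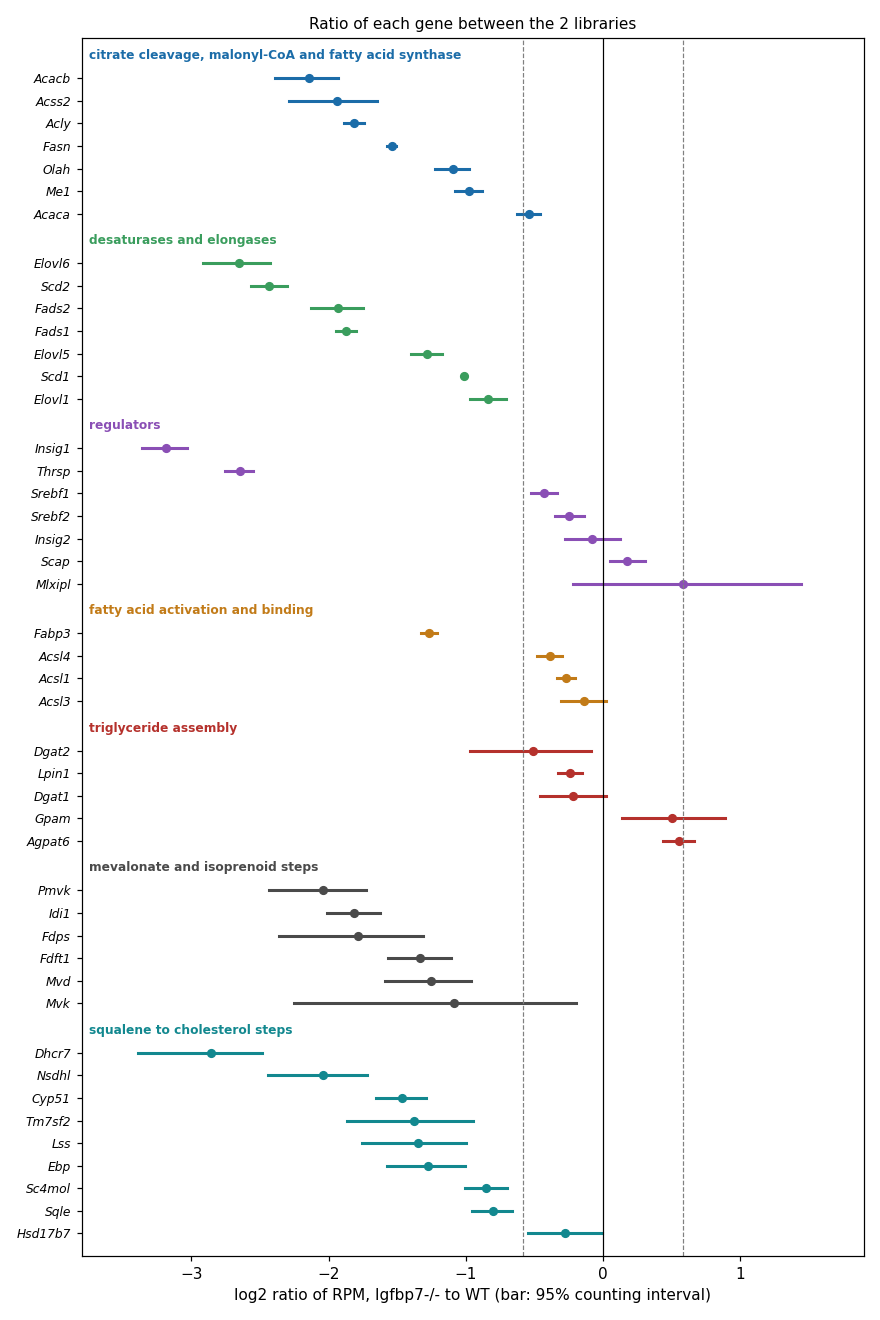
Log2 ratio of RPM, *Igfbp7*-/- to WT, of each of the 45 genes by role, with bars for the exact 95% counting interval and dashed lines at a ratio of 1.5 in either direction. All desaturases and elongases and all mevalonate genes lie left of the lower dashed line, the 5 triglyceride genes lie between the lines (-0.51 to 0.55), and *Insig1* (-3.19) and *Thrsp* (-2.65) stand apart from the other 5 regulators.

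Sterol synthesis was lower at 14 of 15 genes, and their sum was 409.2 RPM in WT against 167.7 RPM in *Igfbp7*-/-, a 2.44-fold difference. All 6 genes of the mevalonate and isoprenoid steps were lower, with a sum of 139.1 and 44.6 RPM (log2 ratio -1.64, interval -1.76 to -1.52). *Pmvk*, the second kinase of the mevalonate steps, had 20.4 RPM in WT against 4.88 RPM in *Igfbp7*-/-, the lowest ratio among them (log2 ratio -2.04, interval -2.43 to -1.73). *Mvk*, the kinase before it, had the lowest level per length of the set in *Igfbp7*-/- (0.434 RPKM), on 58 reads in WT and 26 in *Igfbp7*-/- (1.69 and 0.74 RPM), and its ratio was the least precise of the role (log2 ratio -1.09, interval -2.25 to -0.20). *Mvd*, which decarboxylates the product to isopentenyl diphosphate, had 16.6 and 6.88 RPM. *Idi1*, the isomerase of that diphosphate, had 59.6 and 16.9 RPM, a 3.51-fold difference. *Fdps*, which makes farnesyl diphosphate, had 8.30 and 2.34 RPM, and *Fdft1*, squalene synthase, had 32.5 and 12.9 RPM.

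From squalene to cholesterol, 8 of 9 genes were lower, with a sum of 270.1 RPM in WT against 123.1 RPM in *Igfbp7*-/- (log2 ratio -1.13, interval -1.21 to -1.06). *Dhcr7*, which performs a final reduction to cholesterol and is mutated in Smith-Lemli-Opitz syndrome, had 20.7 and 2.77 RPM, a 7.26-fold difference that was second to *Insig1* in the set (log2 ratio -2.86, interval -3.39 to -2.48). *Nsdhl*, one of the enzymes that remove the methyl groups at carbon 4 of the sterol ring, had 19.2 and 4.60 RPM (log2 ratio -2.04). *Hsd17b7*, which acts in the same demethylation, had 14.9 and 12.3 RPM and was the one sterol gene within 1.5 times (log2 ratio -0.27, interval -0.54 to -0.01). *Sc4mol*, the methyl oxidase of that complex, lay between them with 56.9 and 31.5 RPM (log2 ratio -0.85). Genes of one reaction sequence therefore spanned log2 ratios from -2.04 to -0.27, with counting intervals that did not overlap between these 3.

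*Sqle*, squalene epoxidase, had 63.0 RPM in WT against 36.1 RPM in *Igfbp7*-/-, and its log2 ratio of -0.80 was the nearest to the 1.5-fold limit among the lower genes. *Lss*, which cyclises its product to lanosterol, had 12.1 and 4.71 RPM. *Cyp51*, the lanosterol 14-demethylase, had 54.4 and 19.7 RPM, and *Tm7sf2*, a sterol reductase of the next step, had 8.59 and 3.26 RPM. *Ebp*, the isomerase of the ring double bond, had 20.2 and 8.28 RPM. The log2 ratios of these last 4 lay between -1.46 and -1.28, with overlapping intervals.

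Of 7 further genes listed with sterol synthesis, 4 (57.1%) were lower and 1 higher, beside 23.0% and 21.4% of all genes. Their median log2 ratio was -0.69, and not all are named here. *Ggps1*, *Dhdds* and *Fdxr* among them are not steps to cholesterol. *Acat2*, which makes acetoacetyl-CoA at the start of the route, had 32.0 RPM in WT against 12.1 RPM in *Igfbp7*-/- (log2 ratio -1.39). *Ggps1*, which makes geranylgeranyl diphosphate, had 19.9 and 12.1 RPM (log2 ratio -0.71). The other 3 given here were not lower by 1.5 times. *Sc5d*, a sterol desaturase, had 27.3 and 24.2 RPM (log2 ratio -0.18), *Dhdds*, which makes dolichol precursors, had 14.9 and 16.3 RPM (log2 ratio 0.13), and *Fdxr*, ferredoxin reductase, was higher on 25 and 41 reads (log2 ratio 0.62, interval -0.39 to 1.87).

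**Figure D4:**
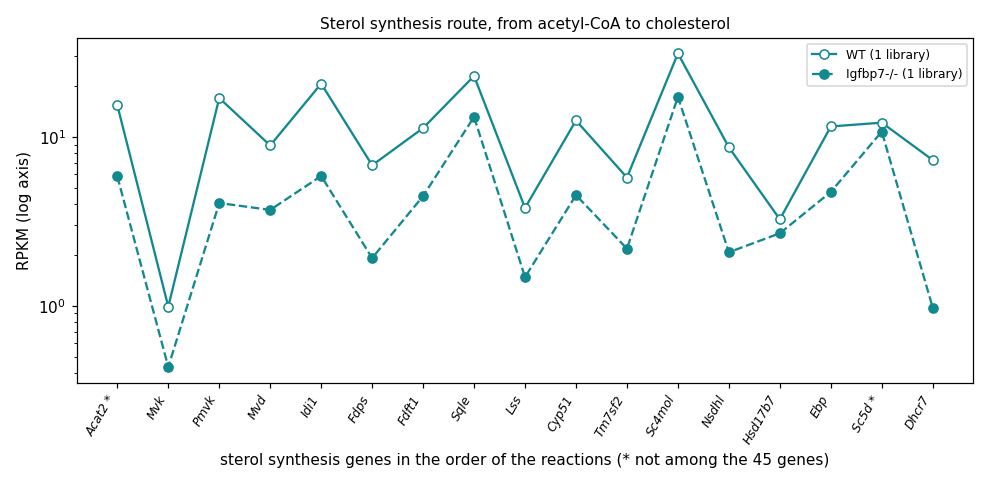
RPKM on a log axis of the 15 sterol synthesis genes, with *Acat2* and *Sc5d* of the same route marked by an asterisk, in the approximate order of the reactions, with open circles and a solid line for WT and filled circles and a dashed line for *Igfbp7*-/-. The dashed line runs below the solid one at every gene, widest at *Dhcr7* (7.29 and 0.974 RPKM) and closest at *Sc5d* (12.1 and 10.7 RPKM). *Hmgcs1* is not drawn.

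Per length, the most abundant genes of the set in WT were *Scd1* with 955.1 RPKM, *Fabp3* with 695.1 RPKM, *Thrsp* with 308.3 RPKM, *Fasn* with 161.8 RPKM and *Fads1* with 110.1 RPKM. In *Igfbp7*-/- the order was *Scd1* with 473.4 RPKM, *Fabp3* with 289.0 RPKM, *Fasn* with 55.6 RPKM, *Thrsp* with 49.1 RPKM and *Acsl1* with 48.5 RPKM. Desaturation and fatty acid binding thus led in both libraries. *Insig1* went from rank 7 of the 45 genes in WT to rank 25 in *Igfbp7*-/-, and *Agpat6* from rank 24 to rank 10.

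Genes around the set were counted by lists, to be read against the 23.0% of all genes that were lower and the 21.4% that were higher. Of 13 genes of sterol uptake, trafficking and efflux, 7 (53.8%) were lower and 1 higher (median log2 ratio -0.73). Among them *Stard4*, a sterol carrier, had 14.7 RPM in WT against 5.74 RPM in *Igfbp7*-/-, and *Soat1*, which esterifies cholesterol, had 23.2 and 10.5 RPM. Of 15 listed genes of SREBP processing and fatty acid control, 5 were lower (33.3%) and 1 higher, with a median log2 ratio of -0.26. The lowest there were *Nr1d1*, a circadian repressor, with 103.6 and 36.6 RPM, *Mid1ip1*, a relative of *Thrsp*, with 34.0 and 14.3 RPM, and *Stat5a*, the prolactin-responsive factor of milk genes, with 64.8 and 31.4 RPM.

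Of 17 further genes of elongation, desaturation and their carbon supply that passed the minimum, 6 (35.3%) were lower and 2 higher (median log2 ratio -0.43). *Slc25a1*, the carrier that exports citrate from mitochondria, had 112.4 RPM in WT against 10.4 RPM in *Igfbp7*-/-, a 10.7-fold difference that exceeded that of every one of the 45 genes (log2 ratio -3.42, interval -3.66 to -3.22). It acts directly before *Acly*. *Tecr*, a reductase of fatty acid elongation, had 41.6 and 11.5 RPM, and *Mdh1*, cytosolic malate dehydrogenase, had 131.4 and 43.4 RPM. Of 12 genes of fatty acid uptake, 5 (41.7%) were lower and 1 higher (median log2 ratio -0.51). They included *Gpihbp1*, which anchors lipoprotein lipase to capillary endothelium, with 24.8 and 3.83 RPM, and *Fabp5* with 38.7 and 9.51 RPM, while *Slc27a1*, a fatty acid transport protein, was higher with 5.91 and 27.6 RPM.

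The other glycerolipid enzymes went both ways, with 4 lower (44.4%) and 3 higher (33.3%) of 9 that passed the minimum (median log2 ratio 0.07). *Agpat9*, a further glycerol-3-phosphate acyltransferase, had 2.07 RPM in WT against 13.0 RPM in *Igfbp7*-/- (log2 ratio 2.59), and *Lpin2*, a relative of *Lpin1*, had 52.5 and 130.7 RPM (log2 ratio 1.31). *Agpat4*, a lysophosphatidic acid acyltransferase, had 20.3 and 7.08 RPM (log2 ratio -1.51). With *Agpat6* and *Gpam* above 0, 3 genes of the first acylation of glycerol-3-phosphate had more RPM in *Igfbp7*-/-.

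Markers of the cell types that could hold these transcripts moved as well. Their counts are to be read against the 23.0% of all genes that were lower and the 21.4% that were higher. All 6 alveolar markers were lower, with a sum of 123402 RPM in WT against 47123 RPM in *Igfbp7*-/-, led by the milk protein gene *Csn2* (53087 and 19970 RPM, log2 ratio -1.41). The 5 luminal epithelial markers summed to 1311 and 3191 RPM, with 3 of them higher, among them *Krt18* (250.4 and 1174 RPM). The basal markers were lower at 5 of 6, with sums of 2942 and 957.9 RPM. Of 14 adipocyte markers, whose cells express many of the same lipid genes, 10 passed the minimum, with 5 lower, 1 higher and 4 within, none was at 0, and their sum was 849.1 and 379.8 RPM. *Adipoq*, a defining adipocyte gene, had 5.59 and 0.9995 RPM, *Fabp4*, which endothelial cells also express, had 543.5 and 173.4 RPM, and *Cidea*, which lactating alveoli also express, had 146.1 and 106.2 RPM. The adipocyte marker that was higher was *Lep*, with 8.04 and 16.8 RPM (log2 ratio 1.06). *Lipe*, within 1.5 times, also had more RPM in *Igfbp7*-/- (10.5 and 15.5 RPM).

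Of the lineages at which the depletion was aimed, the endothelial one is named in the methods but not in the labels. Endothelial markers summed to 1129 RPM in WT against 374.8 RPM in *Igfbp7*-/- (5 of 6 lower, *Pecam1* at 322.5 and 88.9 RPM). Leukocyte markers summed to 193.1 and 79.0 RPM (7 of 8 lower), and erythroid markers to 1066 and 1243 RPM (none past 1.5 times). The study's methods report a check of the depleted cells by fluorescence-activated cell sorting, and deem the remaining lineage-positive cells insignificant. Sums of RPM are not shares of cells. Fibroblast markers summed to 9060 and 4582 RPM, with 4 of 6 lower. Beside these counts, 23.0% of all genes were lower and 21.4% higher. Markers of several cell types thus differed between the libraries beside the lipid synthesis genes, and their part in the lower values was not tested.

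The share of reads outside listed genes was larger in the *Igfbp7*-/- library and enters every RPM. When reads were scaled to those on listed genes, the median log2 ratio of all genes rose from 0.03 to 0.22 and 18.6% of all genes were lower and 30.6% higher, beside 23.0% and 21.4% on the RPM scale. On that scale the 30 genes were still lower, *Mlxipl*, *Gpam* and *Agpat6* passed 1.5 times upwards, and the median of the 45 genes was -1.07. Without the 20 genes of highest RPM, the median of all genes was -0.11, *Acaca* and *Dgat2* also passed 1.5 times downwards, and the triglyceride sum turned to -0.11. *Insig2* and *Acsl3*, whose counting intervals included 0, had ratios below 0 on the RPM scale and above 0 on the scale of listed genes (0.11 and 0.05).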

How the data were processed

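Poly(A) RNA of lineage-depleted MECs was measured in 1 WT and 1 *Igfbp7*-/- library. The authors mapped paired-end SOLiD reads in GeneSifter 4.0 with at most 3 mismatches. The submitters' processing notes name Bowtie 0.12.3, SAMtools 0.1.15 and mm9, whereas the study's methods name a human build, and the deposited tables list mouse genes. The annotation and the handling of reads mapping to several places are not given in the sources used here. Each deposited table holds, for every gene, the unnormalized count of reads. The RPM and RPKM that the authors deposited beside it divide that count by all mapped reads and, for RPKM, by gene length. RPKM is missing for 683 genes. The 50 rows without a symbol (0.0408% and 0.0484% of mapped reads) were left out of all counts of genes.

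Ratios were computed from RPM with a pseudocount of 0.1 for genes with at least 1 RPM in 1 library. They were called at 1.5-fold, the study's fold limit, without the P value and sequence quality cutoffs that the study also used. Low counts were mostly even (75.8% and 74.1% of counts from 1 to 20), so exact conditional binomial (Clopper-Pearson) 95% intervals used counts divided by 2, without the pseudocount. At this depth 3 reads correspond to 0.0874 and 0.0857 RPM. Genes given in full were the 3 of highest RPM in WT and the highest and lowest ratio of each role, and in each further list the 3 largest ratios above 10 RPM. *Sc5d*, *Scd3* and *Scd4* were added afterwards, and a few genes that this rule names are not reported here. The genes and lists were chosen with earlier results of these data known. Alternatives were pseudocounts of 1 and 0.01, RPKM, other minimums, a fold of 2, median centring, edgeR 4.0.16 and DESeq2 1.42.0 size factors, and other read totals. The scripts were tested on simulated data. Python 3.11.15, numpy 2.4.6, pandas 2.3.3, scipy 1.17.1, matplotlib 3.10.9 and R 4.3.3 were used.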

Additional observations from a re-analysis of the deposited data

How the results depend on the processing

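The number of genes lower by 1.5 times ranged from 26 with a 2-fold limit, which *Me1*, *Elovl1*, *Sqle* and *Sc4mol* missed, to 32 without the 20 genes of highest RPM. It was 29 with RPKM and 29 with 1 RPM required in both libraries, which *Mvk* missed, and 27 with a minimum of 10 RPM. The number higher was 0 except for 1 with a pseudocount of 0.01 (*Mlxipl*), 3 with reads on listed genes and 3 when ribosomal and small nuclear RNA was also left out, an alternative chosen after seeing the data. Under the 9 alternatives that can change the ratio of a single gene, 331 of 403 values moved by no more than the counting error and 72 by more. The sign changed in 4 of them, for *Insig2* and *Acsl3*, both within 1.5 times, with either total of reads on listed genes.

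The median of the 45 genes was -1.40 without the top 20 genes, -1.07 with reads on listed genes and -1.06 without ribosomal and small nuclear RNA. Log2 ratios of summed RPM follow in the order fatty acid synthesis, desaturases and elongases, regulators, activation and binding, triglyceride assembly, mevalonate steps and squalene to cholesterol. Without the top 20 genes they were -1.59, -1.25, -1.42, -0.88, -0.11, -1.78 and -1.27. With reads on listed genes they were -1.26, -0.92, -1.10, -0.55, 0.22, -1.45 and -0.95, and without ribosomal and small nuclear RNA -1.25, -0.91, -1.08, -0.54, 0.23, -1.44 and -0.93. Without the gene of highest RPM in each role they were -1.28, -1.79, -0.77, -0.29, 0.37, -1.52 and -1.25. With RPKM the first 4 were -1.40, -1.13, -1.91 and -1.11, with median centring the first 2 were -1.48 and -1.15, and with edgeR's TMM factors the desaturase and elongase sum was -1.13. The triglyceride sum thus had no stable sign.

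No paired analysis was possible because each genotype had 1 library, and no replicate was left out. Variation between animals is not measured here. Depth limits *Mvk* and *Mlxipl* most, at 58 and 26 reads and 44 and 69 reads.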
